A study of Rattus norvegicus with 3 samples.

Results

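Exon peaks were the HA-TET2 peaks that the authors' annotation placed in an exon, more than 3 kb from any start site. Peaks annotated to promoters, UTRs and gene ends form classes of their own and are not among them. The members were all peaks with an exon annotation in both deposited lists, and the host transcript, host gene and exon number were read from that annotation. There were 3056 exon peaks among 35044 peaks in all. The Control list held 2723 of them in 2251 host genes, and the Myocd-LSD1 list held 333 in 323 host genes.

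The study mapped HA-tagged TET2 by CUT&Tag in rat aortic smooth muscle cells (SMC). In CUT&Tag, an antibody guides a protein A-Tn5 transposase to the bound protein, and the DNA cut there is sequenced. Control SMC, whose cell line is labelled WT, gave 2 samples, and the Myocd-LSD1 line gave 1 sample. Every sample had received the adenovirus Adv-HA-TET2 for 24 h, was grown in DMEM/F12 with FBS, and used an antibody to the HA tag on 500000 cells, so that both groups carried the delivered TET2 and untagged TET2 of the cells was not read. The labels name the Myocd-LSD1 line without describing its construct. The deposited data are 1 peak list per group, also for the 2 Control samples, so that no test across replicates can be made and the intervals below (95%, exact binomial for shares, order statistics for medians) cover counting error only.

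TET2 oxidises methylated cytosine, mostly at CpG sites, on the way to their demethylation. In mammals the CpG sites of transcribed gene bodies, exons included, are commonly methylated, whereas CpG-rich promoters commonly are not. LSD1 is a histone demethylase acting on lysine 4 of histone H3, and Myocd encodes myocardin, a coactivator of smooth muscle genes.

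Lrp1 and Lama5 show a pattern found in a minority of the Control host genes, as counted by gene further below. In it, a promoter peak overlapped between the lists and no exon peak did. Lrp1 encodes a large endocytic receptor of the LDL receptor family, and Lama5 a laminin chain of basement membranes. In Control, Lrp1 held 8 exon peaks and Lama5 held 7, and none of them overlapped a Myocd-LSD1 peak. Both genes had a promoter peak in each list. Those peaks lay 435 bp (Control) and 667 bp (Myocd-LSD1) from the Lrp1 start site, and 1352 and 1318 bp from that of Lama5. Such distances exceed the reach of the windows printed, so the bases are not to be read as peak sequence. The promoters are shown because peaks lay near them in both lists. They are given from 250 bases before to 50 bases after the start as in RefSeq (build GRCr8, minus strand, chr7:65346147-65346446 and chr3:187695925-187696224), 5′ to 3′, with the dinucleotide CG in capitals.
Lrp1 promoter: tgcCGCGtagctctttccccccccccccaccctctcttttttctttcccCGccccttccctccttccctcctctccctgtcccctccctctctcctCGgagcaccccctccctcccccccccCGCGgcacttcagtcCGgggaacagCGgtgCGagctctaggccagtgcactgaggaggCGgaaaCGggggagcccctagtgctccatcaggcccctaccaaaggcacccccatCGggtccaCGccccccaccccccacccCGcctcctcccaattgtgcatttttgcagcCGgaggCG
Lama5 promoter: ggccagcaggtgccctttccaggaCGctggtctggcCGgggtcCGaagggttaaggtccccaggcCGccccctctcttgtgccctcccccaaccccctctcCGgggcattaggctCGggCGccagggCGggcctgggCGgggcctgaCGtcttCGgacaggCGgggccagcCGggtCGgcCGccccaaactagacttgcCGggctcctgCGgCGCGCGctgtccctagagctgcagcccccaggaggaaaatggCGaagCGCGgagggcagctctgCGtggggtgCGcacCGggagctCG
The Lrp1 window holds 16 CG and the Lama5 window 27. The motif CG, which reads the same on both strands, occurs in 94.5% of the 33469 promoter windows of that table, with a median of 7 per window. The peaks' coordinates below are of rn6 and are not to be set against these positions.

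At the Lrp1 promoter the Control peak on chromosome 7 (70927463 to 70928031) had a deposited fold enrichment of 9.82 and 22 fragments at its summit. The Myocd-LSD1 peak there (70927695 to 70927963) had a fold of 7.65 and 11 fragments. Fragments here are the whole pile-ups recovered from the deposited fold and p-value. The 8 Control exon peaks of Lrp1 lay between 70849597 and 70911962, in exons 6, 10, 17, 25, 31, 53, 56 and 81 of 90. Their folds were 3.45 to 7.44, with 9 to 34 fragments at the summits. The pile-up of the strongest of them, in exon 81 and 1261 bp wide, exceeded that of the promoter peak. Its fold of 7.44 was below the 9.82 of the promoter peak. Myocd-LSD1 had no peak overlapping that exon peak. At Lama5 on chromosome 3 the promoter peaks had folds of 8.63 in Control and 5.26 in Myocd-LSD1, with 26 and 8 fragments. The Control exon peaks of Lama5 had folds of 3.19 to 8.89 and 11 to 34 fragments, and the strongest, in exon 10 of 79, was 1000 bp wide.

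Exon peaks made up 10.7% of the Control list (10.3 to 11.1%) and 3.50% of the Myocd-LSD1 list (3.14 to 3.89%). Control thus had 8.18 times as many exon peaks and 6.97 times as many host genes. With a stricter threshold, −log10 q of at least 3 in both lists, the shares were 10.7% and 2.72%. When the Control list was cut to its 9523 most significant peaks, the size of the Myocd-LSD1 list, 1076 of them were exon peaks (11.3%, 10.7 to 12.0%). The Control list was the deeper one: its lowest local background was 0.175 fragments against 0.0633 in Myocd-LSD1, a ratio of 2.77. The part of depth in the difference between lists was not tested, and read totals per sample are not used here.

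In Control, 84.0% of the host genes held 1 exon peak, 296 held 2, 42 held 3 and 22 held 4 or more, up to 9. In Myocd-LSD1, 97.2% held 1 exon peak and none more than 3. Exon peaks of both lists were found in 197 host genes, of 2377 in either list.

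The host genes with most Control exon peaks mostly encode large proteins. Dst and Wdfy3 led with 9 each. Dst encodes dystonin, a plakin that links cytoskeletal filaments, and Wdfy3 a BEACH-domain scaffold of selective autophagy. The Dst peaks had folds of 3.64 to 8.93 and 6 to 35 fragments, and those of Wdfy3 3.79 to 8.06 and 7 to 20 fragments. Neither gene had an exon peak in Myocd-LSD1, and none of their Control exon peaks overlapped any peak of it. Dst also held 21 Control intron peaks, of which 1 overlapped, and 4 promoter peaks, of which 1 overlapped. Wdfy3 held 5 intron peaks, none overlapping, and no promoter peak.

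Nav2, a neuron navigator of the cytoskeleton, held 7 Control exon peaks with folds up to 9.57, and Fat1, an atypical cadherin, held 5 with folds up to 10.5. Aff1, a subunit of transcription elongation complexes, held 5. None of the exon peaks of Nav2, Fat1 or Aff1 overlapped a Myocd-LSD1 peak. Tenm3 and Hspg2 each had 1 exon peak that did. For Tenm3, a teneurin of the cell surface with 5, it lay in exon 17 of 31 and was by far the strongest, with 103 fragments against 5 to 8 at the other 4. For Hspg2, which encodes perlecan and held 5, it lay in exon 78 of 98, with folds of 6.06 and 5.09.

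**Figure D1:**
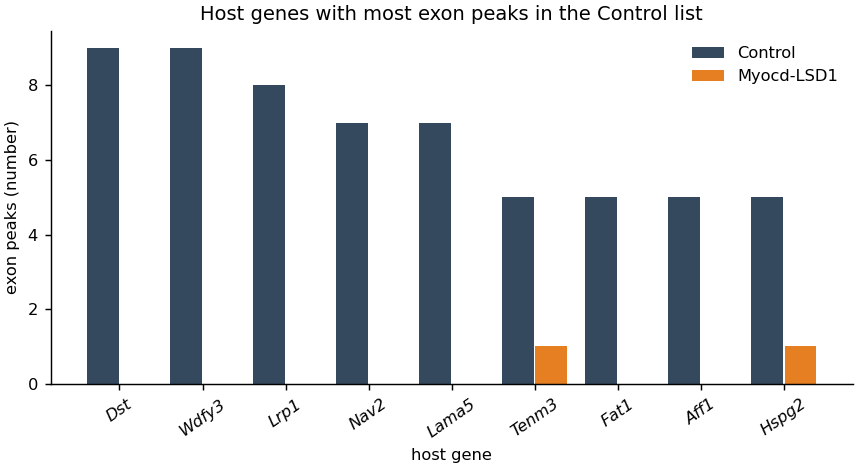
Number of exon peaks (vertical axis) in 9 of the host genes with most Control exon peaks, for the Control list (dark bars) and the Myocd-LSD1 list (orange bars). Dst and Wdfy3 have 9 Control exon peaks each and no Myocd-LSD1 exon peak, and Tenm3 and Hspg2 have 1 in Myocd-LSD1.

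In Myocd-LSD1 only Rn45s, the ribosomal RNA precursor gene, held 3 exon peaks. Plb1, a phospholipase, held 2, of which the one in exon 48 of 62 overlapped a Control exon peak. Lrp2, which encodes megalin, held 2, of which the one in its last exon, 79 of 79, overlapped, with folds of 5.13 in Myocd-LSD1 and 13.3 in Control. Both Myocd-LSD1 exon peaks of Fbxl18, an F-box protein gene, overlapped Control exon peaks, with folds of 4.13 in Myocd-LSD1 and 12.6 in Control in exon 3, and of 5.13 and 11.2 in exon 4 of 5.

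The exon peaks of Tet2 itself, singled out after their values were seen, stood far above all other exon peaks in pile-up and −log10 q, though not in fold. Each list held 2 of them on chromosome 2. The first (238744012 to 238746132), in exon 3 of 12 counted from the start site, had identical bounds and a width of 2121 bp in both lists. It had 1622 fragments and a fold of 12.3 in Control, and 1474 fragments and a fold of 14.6 in Myocd-LSD1. The second, in the last exon, 12 of 12, started at 238722435 in Control and 238722433 in Myocd-LSD1 and ended at 238723834 in both. It had 779 fragments and a fold of 13.2 in Control, and 719 fragments and a fold of 15.4 in Myocd-LSD1. The strongest exon peak outside Tet2, in Rn45s, reached 346 fragments in Control and 125 in Myocd-LSD1.

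Pile-ups at Tet2, not scaled for the depth of the lists, were thus nearly equal, with ratios of Control to Myocd-LSD1 of 1.10 and 1.08. Over the other 169 Control exon peaks that overlapped a Myocd-LSD1 exon peak, the median ratio was 2.80 (2.50 to 3.25), and 97.0% had more fragments in Control. The ratio was below 1 at 3 of them, namely Lnc001, LOC108350645 and LOC108350819, and was highest at Gfod1, with 97 fragments against 5. The median ratio lay near the ratio of the lists' lowest local backgrounds, 2.77. Relative to their local backgrounds the Tet2 peaks were higher in Myocd-LSD1, as their folds above show. The part of depth in these ratios was not tested. No list held a promoter peak assigned to Tet2. All cells carried TET2 on the adenovirus, and its part in the Tet2 peaks was not tested. The annotation assigned both Tet2 exon peaks to the neighbouring Gpbp1l2, whose start site was nearest.

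**Figure D2:**
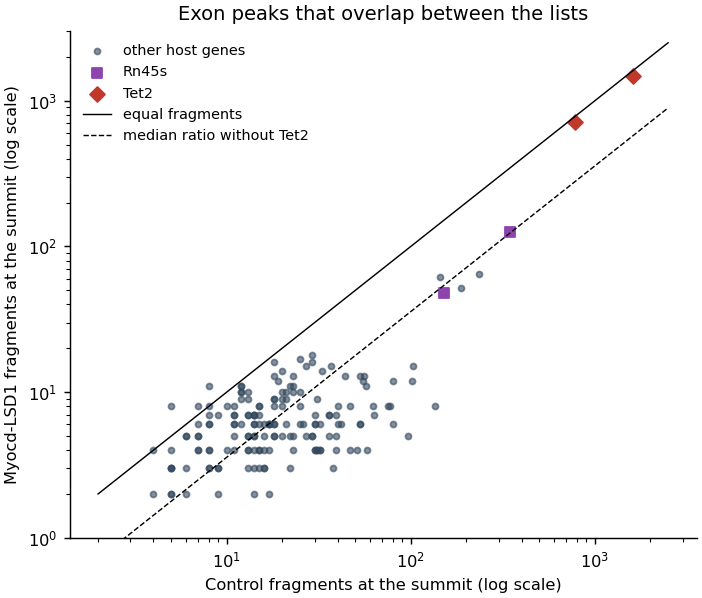
Fragments at the summit in Control (horizontal axis) and in Myocd-LSD1 (vertical axis), both on log scales, for the 171 Control exon peaks that overlapped a Myocd-LSD1 exon peak. Fragments are not scaled for the depth of the lists. The 2 Tet2 peaks (diamonds) lie close to the line of equal fragments, and the Rn45s peaks (squares) lie close to the dashed line, the median ratio of 2.80 over all pairs but Tet2.

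A low share of the Control exon peaks was also called in Myocd-LSD1. Of 2723, 232 overlapped a Myocd-LSD1 peak by 1 bp or more (8.52%, 7.50 to 9.63%), against 22.0% of Control peaks of all classes. Of these 232, 171 overlapped a Myocd-LSD1 exon peak (6.28% of all). Later-intron peaks, those in any intron but the first, overlapped in 14.1%, first-intron peaks in 16.9% and promoter peaks in 37.8%. The Myocd-LSD1 list held 333 exon, 1688 later-intron and 4232 promoter peaks, against 2723, 5726 and 7728 in Control. Such numbers limit how many Control peaks of a class can be overlapped. The low share is thus not independent of the small exon share of the Myocd-LSD1 list, whose part in it was not tested. At equal list lengths of 9523 peaks, the Control shares were 17.5% for exon peaks, 27.5% for later introns and 58.0% for promoters.

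In the Control list, exon peaks also had a lower share than later-intron and promoter peaks among peaks of like pile-up or −log10 q. Exon peaks had a median of 9 fragments in Control, against 7 for later introns and 8 for promoters. Among Control peaks of 8 to 10 fragments, 5.12% of exon peaks overlapped, 13.4% of later-intron peaks and 41.3% of promoter peaks. Among those of 21 to 30 fragments the shares were 18.5% (13.3 to 24.8%), 43.5% and 62.8%. The exon share was below the later-intron share in all 8 classes of fragment number and in all 6 classes of −log10 q. With −log10 q of 9 or more, 26.8% of exon peaks overlapped (23.1 to 30.7%), 39.1% of later-intron peaks and 67.8% of promoter peaks. By fold enrichment, exon peaks were lower in 5 of 6 classes and higher in the lowest class, with 3.57% against 2.36%. Later-intron peaks weighted to the fold classes of the exon peaks would overlap in 15.3%, and promoter peaks in 36.7%.

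**Figure D3:**
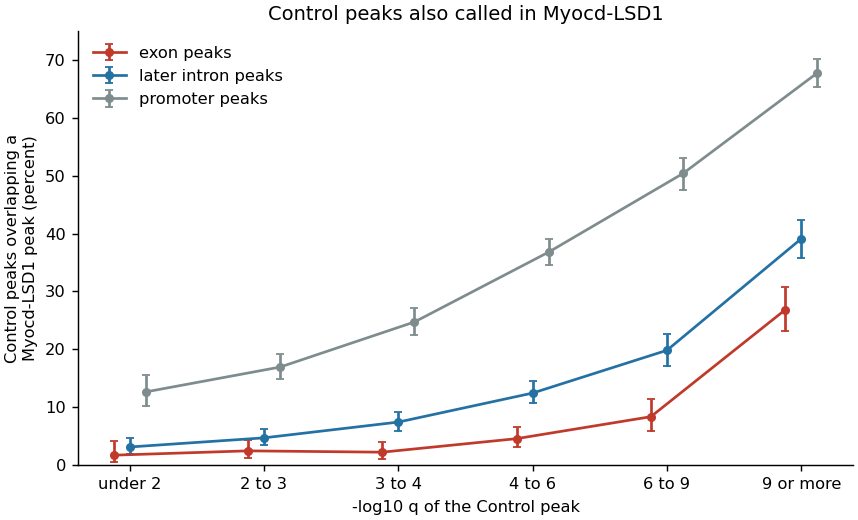
Share of Control peaks that overlapped a Myocd-LSD1 peak, in percent (vertical axis), by −log10 q of the Control peak (horizontal axis), for exon, later-intron and promoter peaks, with exact 95% binomial intervals. In the highest class 26.8% of exon peaks, 39.1% of later-intron peaks and 67.8% of promoter peaks overlapped, and exon peaks are lowest in each class.

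In the whole lists, the overlapping share of the Myocd-LSD1 exon peaks stood between those of the other classes. Of 333, 186 overlapped a Control peak (55.9%, 50.3 to 61.3%), against 59.4% of Myocd-LSD1 peaks of all classes. Later-intron peaks overlapped in 51.2%, first-intron peaks in 60.1% and promoter peaks in 69.0%. A Control exon peak was overlapped by 173 of them (52.0%). At equal list lengths 45.3% of the exon peaks overlapped (39.9 to 50.9%), beside 34.4% of later-intron and 43.1% of promoter peaks. At like pile-up, exon peaks of this list were not lowest throughout, unlike those of Control. Among Myocd-LSD1 peaks of 6 to 7 fragments, 93.8% of exon, 78.8% of later-intron and 75.5% of promoter peaks overlapped. With 4 to 5 fragments the shares were 65.4%, 64.6% and 59.5%, and with 2 or fewer 7.95%, 8.78% and 17.0%. Any Control peak, in or assigned to the gene, was found for 82.0% of the Myocd-LSD1 host genes, and any Myocd-LSD1 peak for 51.0% of the Control host genes.

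Among Control peaks with a fold of 9 or more, 39.3% of exon peaks overlapped a Myocd-LSD1 peak, 49.1% of later-intron peaks and 77.1% of promoter peaks. Of the 10 Control exon peaks of highest fold in genes with settled symbols, 8 did. The highest of the 10 lay in exon 2 of 3 of Gfod1, an oxidoreductase-domain protein gene, with a fold of 17.4 in Control and 5.13 in Myocd-LSD1. Exon 17 of Tenm3 followed with 17.1 and 9.35. Tnfrsf21, a death-domain receptor gene of the TNF receptor family, had 16.6 and 6.32 in exon 2 of 6. Bcr, a GTPase regulator, had 14.8 and 9.47 in exon 8 of 26 and was the last of the 10. Among further overlapping peaks, that in the last exon of Orai1, a store-operated calcium channel gene, had 14.5 and 4.54. In the Myocd-LSD1 list the highest fold, 17.3, belonged to LOC108352751. The highest folds of genes with settled symbols after Tet2 included those of Tom1l1, an endosomal adaptor gene, with 10.5 there and 12.4 in Control, and of Rpa1, a subunit of replication protein A, with 10.2 and 11.4.

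Other strong Control exon peaks had no Myocd-LSD1 peak in or assigned to the gene. Usp19, a deubiquitinase gene, had an exon peak with a fold of 16.7 and 80 fragments in exon 23 of 27. Plch2, a phospholipase C gene, had one with 16.4 and 53 fragments. Tubgcp6, of the gamma-tubulin complex, had 14.5 and 45 fragments, Dock6, a guanine nucleotide exchange factor gene, 13.5 and 45 fragments, and Ngfr, a neurotrophin receptor gene, 13.3 and 26 fragments. In the opposite direction, Myocd-LSD1 exon peaks without any Control peak at the gene were ranked by fold among genes with settled symbols. The first of them, in exon 4 of 4 of Trim14, had a fold of 5.23 and 6 fragments. Wnt10a, a Wnt ligand gene, and Igfbp4, an IGF-binding protein gene, followed the same pattern with 4.34 and 4.28 and 4 fragments each.

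About as many exon hosts as intron hosts had a promoter peak in the same list. In Control 904 of the 2251 host genes did (40.2%, 38.1 to 42.2%), against 38.6% of the host genes of intron peaks. In Myocd-LSD1 63 of 323 did (19.5%, 15.3 to 24.3%), against 22.5%. A promoter peak in the other list was found for 23.2% of the Control hosts and 35.9% of the Myocd-LSD1 hosts. Among Control hosts with 2 or more exon peaks 48.9% had a promoter peak, among those with 1 exon peak 38.5%. Fold and width of Control exon peaks hardly differed by it, with median folds of 5.32 with and 5.28 without a promoter peak and median widths of 355 and 347 bp.

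Within these 904 Control genes, the exon and promoter peaks of the same genes were met at different rates. Of their exon peaks 7.96% overlapped a Myocd-LSD1 peak, of their promoter peaks 37.5%, at median pile-ups of 10 and 9 fragments. Both shares lay near those of all Control exon and promoter peaks, 8.52% and 37.8%. By gene, a promoter peak alone overlapped in 346, an exon peak alone in 57, both kinds in 30 and neither in 471. Rpa1 and Tnfrsf21 were among the 30. In the 871 Control genes with exon and intron peaks, 8.86% of the exon peaks and 15.0% of the intron peaks overlapped. Over the whole Control list the shares were 8.52% for exon, 14.1% for later-intron and 16.9% for first-intron peaks.

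Host transcripts had a median of 13 exons in Control (13 to 14; quartiles 7 and 23) and 11 in Myocd-LSD1 (10 to 13; quartiles 5 and 20). Intron peaks were hosted by transcripts with a median of 13 exons in both lists. Counting each transcript once gave 12 and 11. The largest Control host was Ttn, the titin gene, with 327 exons and a peak in exon 322. Hosts of 1 to 4 exons held 14.3% of the Control and 23.4% of the Myocd-LSD1 exon peaks, against 9.85% and 10.3% of the intron peaks. Control hosts with 2 or more exon peaks had a median of 20 exons, those with 1 had 11.

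**Figure D4:**
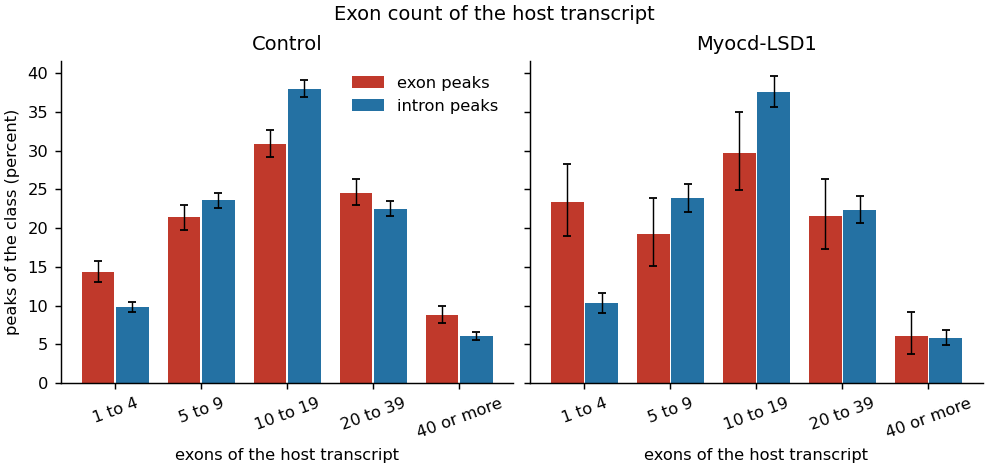
Share of exon peaks (red bars) and of intron peaks (blue bars) in percent of their class, by the number of exons of the host transcript, in the Control and the Myocd-LSD1 list, with exact 95% binomial intervals. In Myocd-LSD1, 23.4% of exon peaks but 10.3% of intron peaks lay in hosts of 1 to 4 exons.

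Non-coding RNA transcripts hosted 8.19% of the Control exon peaks (7.19 to 9.28%) and 18.6% of those in Myocd-LSD1 (14.6 to 23.2%), while for intron peaks the shares were 6.25% and 7.56%. Their median was 3 exons in both lists, and coding hosts had 15 in Control and 14 in Myocd-LSD1. In Control 19.3% of exon peaks in non-coding hosts overlapped a Myocd-LSD1 peak (14.3 to 25.1%), against 7.56% in coding hosts (6.55 to 8.67%). By exon count the overlapping share was 10.7% in hosts of 1 to 9 exons, 7.73% with 10 to 19 and 6.92% with 20 or more.

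The median width of Control exon peaks was 350 bp (342 to 359 bp; quartiles 246 and 525 bp), against 297 bp for later introns and 334 bp for promoters. In Myocd-LSD1 the median was 242 bp (226 to 254 bp), against 228 and 278 bp. Above 600 bp were 17.6% of the Control exon peaks and 9.10% of the later-intron peaks, and 3.90% and 2.19% in Myocd-LSD1. The widest Control exon peak of a named gene on an assembled chromosome, 2220 bp, lay in the last exon of Eppk1, which encodes the cytolinker epiplakin and has 3 exons. Exon 11 of Fat1 carried a peak of 2130 bp. Among named genes in Myocd-LSD1, the widest after Tet2 was that of Afap1, an actin-binding adaptor gene, with 974 bp there and 1011 bp in Control, while 2 peaks in hosts with LOC symbols reached 1203 bp.

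The median fold of exon peaks was 5.31 in Control and 4.28 in Myocd-LSD1, on the scale of each list, and 5.86 and 5.99 at −log10 q of at least 3. The local background under Control exon peaks, 0.724 fragments in the median, was above that of later introns (0.504), promoters (0.546) and intergenic peaks (0.441). In Myocd-LSD1 exon and later-intron backgrounds were 0.170 and 0.169. Pile-ups of 3 fragments or fewer were behind 4.92% of the Control and 41.4% of the Myocd-LSD1 exon peaks.

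The deposited exon numbers ran along the chromosome and not along transcription. Across Control peaks in hosts of 5 or more exons, the number followed the position along transcription with Spearman's rho of 0.810 in plus-strand hosts (n = 642) and −0.862 in minus-strand hosts (n = 931), as a description over peaks that share host genes. Deposited number 1 was given to 19.8% of the peaks in minus-strand hosts and 0.103% in plus-strand hosts. Numbers were therefore reversed for minus-strand hosts throughout, which was possible for 2486 Control and 291 Myocd-LSD1 exon peaks.

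**Figure D5:**
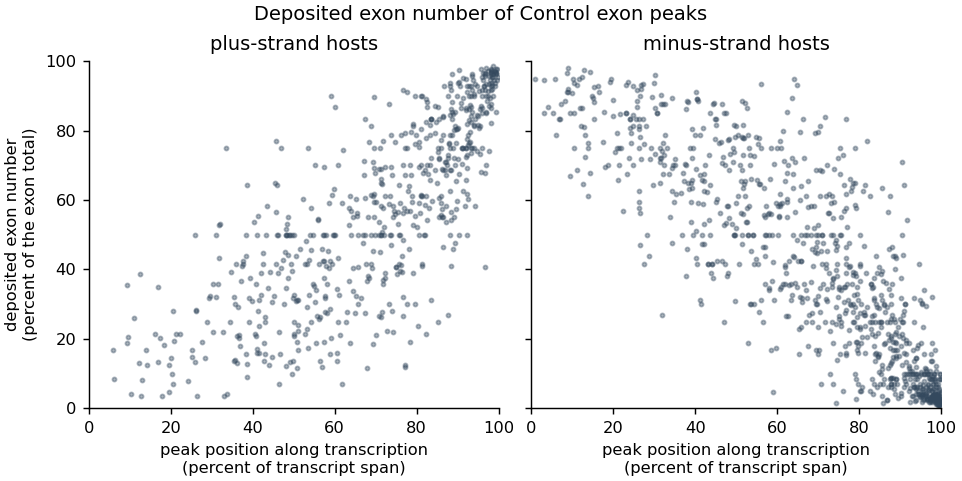
Deposited exon number as percent of the exon total (vertical axis) by peak position along transcription as percent of the transcript span (horizontal axis), for Control exon peaks in hosts of 5 or more exons. Numbers rise along plus-strand hosts (642 peaks) and fall along minus-strand hosts (931 peaks).

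Counted from the start site, fewest exon peaks lay in the early exons and most in the late ones. In hosts of 5 or more exons the exon order was divided into 4 equal sections, which held 16.4%, 26.8%, 25.0% and 31.9% of the Control peaks from start to end. In Myocd-LSD1 they held 14.4%, 23.9%, 26.6% and 35.1%. The first exon held 0.234% and 0%, every exon peak being at least 3010 bp from a start site. That distance also keeps peaks out of the first section, so its low share is in part fixed by how the members were defined. The last exon held 22.8% of the Control peaks (21.2 to 24.5%) and 32.6% of the Myocd-LSD1 peaks (27.3 to 38.4%), but 14.3% and 18.9% in hosts of 5 or more exons. The nearest start site of a Control exon peak was 13707 bp away in the median and that of a Myocd-LSD1 exon peak 13216 bp, against 23032 and 22798 bp for later-intron peaks. That start site belonged to the host gene for 60.4% and 62.2% of the exon peaks.

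By chromosome, the exon share of Control peaks was highest on chromosome 12, at 17.0% (14.8 to 19.3%), and lowest among chromosomes 1 to 20 and X on X, at 2.31%.

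Related genes were counted by lists of their function, each as hosts out of the genes listed. The lists do not hold every member of a family. For comparison, 8.33% of the 23154 protein-coding genes of the RefSeq table were Control hosts by symbol and 1.03% Myocd-LSD1 hosts, and 8.52% of all Control exon peaks overlapped, so that a count of 0 or 1 among few peaks differs little from it. Host transcripts of some lists had many exons. Their median exon count in Control was 66 for laminins, 57 for kinesins, dyneins and myosins, 36 for plakins and spectrins, and 34 for LDL receptors. It was 8.5 for smooth muscle contractile genes and 13 over all Control exon peaks. The part of exon count in the host counts was not tested. Of 22 laminin and basement membrane genes, 15 hosted 31 Control exon peaks, of which 4 overlapped a Myocd-LSD1 peak, near the 8.52% of all Control exon peaks. Lama4, another laminin chain gene, had folds of 11.3 in Control and 8.53 in Myocd-LSD1 in exon 9 of 38. All 4 Myocd-LSD1 hosts of that list, among them Lama4, Hspg2 and Lamb1, had an overlapping Control peak. Of 14 LDL receptor family genes 12 were Control hosts with 23 peaks, of which 1, in Lrp2, overlapped, beside the 8.52% of all. Lrp10 had a fold of 12.6 with 68 fragments and Lrp8, a reelin receptor gene, 9.17 with 43 fragments, both without a Myocd-LSD1 counterpart.

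Of 16 plakin, spectrin and cytolinker genes 10 hosted 28 Control exon peaks, none of which overlapped, beside the 8.52% of all, and the Myocd-LSD1 peaks in Syne1 and Syne2, nesprin genes, had 2 fragments each. Kinesins, dyneins and unconventional myosins gave 15 hosts of 24 with 26 peaks, 1 overlapping in Myocd-LSD1, at Dnah1, an axonemal dynein gene. Kif5a, a kinesin gene outside the list, also had an overlapping exon peak, with 30 fragments in Control and 4 in Myocd-LSD1. Calcium channel and release genes gave 10 hosts of 18 with 20 peaks, 1 of them overlapping. Control exon peaks of both Orai1 and Cacna2d2 overlapped, so the list does not hold both genes. Cadherin, FAT and teneurin genes gave 9 hosts of 18 with 22 peaks, and the overlapping one was that of Tenm3. Of 22 listed collagen genes 9 hosted 10 Control peaks, none overlapping, among them Col4a1, a basement membrane collagen gene, with a fold of 9.57. Outside the list, the collagen gene Col6a6 had an overlapping exon peak, with 22 fragments in Control and 5 in Myocd-LSD1. Of 21 integrin and focal adhesion genes 8 hosted 9 peaks, the strongest in the last exon of Pxn, the paxillin gene, with a fold of 10.1.

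Of 23 smooth muscle contractile genes, 5 hosted 8 Control exon peaks, 1 of which overlapped, and 1 was a Myocd-LSD1 host. That host was Mylk, whose Myocd-LSD1 peak in exon 4 of 32 overlapped the Control one, with folds of 4.47 and 5.74. Tpm1, a tropomyosin gene, had a fold of 6.50 and Smtn, the smoothelin gene, had 5.48, both without overlap. Of 22 smooth muscle transcription factor genes 3 were Control hosts. Of these, Tead3, a TEAD factor gene, overlapped, with folds of 7.22 and 5.22, and Nfatc1 (5.14) and Mef2d (3.22) did not. Notch receptors and ligands gave 4 Control hosts of 12 with 5 peaks, none overlapping, beside the 8.52% of all. Among them was Notch1, with a fold of 7.96 in exon 26 of 34. Notch1 was also a Myocd-LSD1 host, with a separate peak in exon 6 of fold 3.52 and 3 fragments.

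Of 17 DNA methylation genes 5 hosted 7 Control exon peaks. The 3 that overlapped were those of Tet2 and of Tet3, another TET dioxygenase gene, whose peak in exon 2 of 10 had 23 fragments in Control and 5 in Myocd-LSD1. Dnmt1, the maintenance methyltransferase gene, had a Control peak of fold 5.82 in exon 29 of 38 with no overlap. Of 21 genes acting on methylation of histone H3 lysine 4, 6 were Control hosts with 8 peaks, none overlapping (8.52% of all Control exon peaks did), led by Rcor3, a CoREST family gene, with 11.3.

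Markers of other cell types were counted as well, although peaks do not measure their expression. Control exon peaks lay in 3 of 12 endothelial, 1 of 10 macrophage and leukocyte, 1 of 10 neural, 0 of 8 hepatocyte and 2 of 10 skeletal and cardiac muscle markers. In Myocd-LSD1 the numbers were 2, 0, 1, 0 and 0. Of 15 housekeeping genes 1, Gusb, was a Control host and none a Myocd-LSD1 host.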

How the data were processed

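The data are HA-TET2 CUT&Tag peaks from 3 rat aortic SMC samples, of which the labels' titles and cell lines put 2 in the Control group and 1 in the Myocd-LSD1 group. The submitters' processing notes name Bowtie2, deepTools, MACS2 and ChIPseeker, and the build rn6. Versions, settings and any pooling of the Control samples were not given in the sources used here. Each group came as 1 annotated list of narrow peaks deposited by the authors. The deposited fold enrichment is a ratio per peak. The −log10 p and −log10 q, each per peak, are also the authors' deposited values. The deposited score was left aside. Summit offsets and distances are in bp in the deposited lists. Starts, which count from 0 there, count from 1 here. The first peak's values are missing under the header, and it is not used.

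Pile-ups k and local backgrounds were recovered as the whole k at which fold = (k + 1)/(background + 1) and the Poisson probability of more than k both match, for 25518 Control and 9520 Myocd-LSD1 peaks. An overlap needed 1 bp. A host gene shared a promoter when a promoter peak was assigned to it. Steps were checked on made-up input and against bedtools 2.31.1, with Python 3.11.15, pandas 2.3.3 and scipy 1.17.1. Named genes lie on assembled chromosomes and have settled symbols: the 10 hosts with most exon peaks, the 10 peaks of highest fold, the widest, the overlapping and those without a peak of the other list at the gene, and up to 4 hosts per gene list, of which a selection is printed and some are not reported here. Members, the 19 gene lists and rules were chosen with earlier results of these data known. Promoter sequences were matched for 75.2% of the Control hosts, under the 80% needed, so a check of base composition over the hosts was void. No rn6 genome was used here, so that no peak sequence is printed.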

Additional observations from a re-analysis of the deposited data

How the results depend on the processing

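No paired analysis was possible because each group has 1 list, and for the same reason leaving out a Control replicate was not run. Of 72 alternative values, 43 stayed within the interval of the reported value or, for counts, within 1.5 times of it. Restricting to assembled chromosomes moved none.

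At −log10 q of at least 3 in both lists, Myocd-LSD1 kept 134 exon peaks in 129 host genes, 2.72% of its peaks, and 110 host genes were shared between the lists. Median widths were then 412 bp for Control and 320.5 bp for Myocd-LSD1 exon peaks, and median folds 5.86 and 5.99. Promoter peaks were shared by 33.3% and 13.2% of the hosts. A peak of the other list overlapped 7.02% of the Control and 88.8% of the Myocd-LSD1 exon peaks, and an exon peak 84.3% of the latter. With a reciprocal overlap of 50%, any peak overlapped 4.22% and 30.0%, and an exon peak 3.56% and 29.1%. With both lists cut to 9523 peaks the shares were 17.5% and 45.3%. With 1 exon peak per host gene, the Control medians were 12 exons, 364 bp and a fold of 5.49, and distinct transcripts gave 12 exons. Counting promoter peaks within 1 kb gave 32.2% of the Control hosts, and using the assigned gene 37.3%. In hosts of 5 or more exons, the last exon held 14.3% and 18.9%.

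The following were chosen after the data were seen. Leaving out Tet2 and Rn45s left 2718 and 328 exon peaks, of which 8.39% and 55.2% overlapped. Weighting by fragments in place of fold gave 17.8% for later-intron and 40.4% for promoter peaks, and weighting by −log10 q 15.9% and 37.5%. The many Myocd-LSD1 exon peaks of few fragments limit what an absent peak can show, since a locus without a Myocd-LSD1 peak may lie below its threshold.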
